A study of Mus musculus with 20 samples.

Results

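The genes described here are 5 members of the ADAMTS protease family, Adamts1, Adamts2, Adamts4, Adamts5 and Adamts9, out of 53311 rows of the deposited count table and 19 ADAMTS genes found in it. They were chosen by name as members of 1 family and selected on the exercise response of Adamts9, whose counts were higher after exercise in both genotypes. That response is therefore given as a description, and no member is tested between exercise and rest. The levels came from RNA sequencing of the gastrocnemius, a calf muscle of mixed but mostly fast fibres, in 20 mouse samples. All samples carried the genotype Cre+:iMSBmal1 fl/fl, so the controls also held Cre and the floxed alleles of Bmal1, a transcription factor of the circadian clock, whose loss was aimed at skeletal muscle. The 4 groups, of 5 samples each, were vehicle without exercise, vehicle with exercise, iMSBmal1KO without exercise and iMSBmal1KO with exercise. All muscles were labelled zeitgeber time 13, and exercised mice had run 30 min on a treadmill 1 h before collection. The promoter that drives Cre, the inducing agent, and the age and strain of the mice are not given in the sources used here. For the exercised knockout samples, 1 label field mentions training where the titles mention acute exercise, and they were taken as acutely exercised.

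ADAMTS proteins are secreted zinc metalloproteases with thrombospondin repeats, which hold them in the extracellular matrix. They are made as precursors that furin-like proteases trim, some are inhibited by TIMP-3, and some are cleared from the tissue through the endocytic receptor LRP1. ADAMTS1, ADAMTS4, ADAMTS5 and ADAMTS9 cut large proteoglycans such as versican and aggrecan, and in developing muscle the cleavage of versican-rich matrix accompanies myoblast fusion. ADAMTS2 instead removes the amino-terminal propeptide of fibrillar procollagens, a step that collagen needs before it can assemble into fibrils.

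Start-site sequences from RefSeq (GRCm38.p6) were matched for 3 of the 5 members, Adamts1, Adamts2 and Adamts9, each window holding 250 bases before and 50 after the annotated start. Those of Adamts9, whose counts differed between groups, and of Adamts1, the member with the highest level, are shown 5′ to 3′ on the strand of the gene. The Adamts9 window lies at chr6:92943485-92943784 on the minus strand and the Adamts1 window at chr16:85803064-85803363 on the minus strand. Capitals mark matches to the motifs that were searched on both strands.
Adamts9: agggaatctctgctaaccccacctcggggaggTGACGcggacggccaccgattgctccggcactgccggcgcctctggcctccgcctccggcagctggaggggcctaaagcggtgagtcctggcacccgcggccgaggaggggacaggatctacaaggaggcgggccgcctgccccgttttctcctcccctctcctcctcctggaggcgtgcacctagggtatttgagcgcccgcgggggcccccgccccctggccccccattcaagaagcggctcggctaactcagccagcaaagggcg
Adamts1: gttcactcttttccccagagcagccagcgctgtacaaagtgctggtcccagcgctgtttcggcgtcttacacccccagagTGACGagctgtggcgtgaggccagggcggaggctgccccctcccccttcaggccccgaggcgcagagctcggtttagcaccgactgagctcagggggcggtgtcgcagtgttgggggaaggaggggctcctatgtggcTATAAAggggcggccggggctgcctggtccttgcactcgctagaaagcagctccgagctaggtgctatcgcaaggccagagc
The capitals in the Adamts9 window, at position -218 from the start, and the first in the Adamts1 window, at position -170, are the letters TGACG, the half-site of the cyclic AMP response element, which 20.8% of 32851 windows of the same length held on either strand. The second capitals in the Adamts1 window, at position -32, are TATAAA, found in 13.6% of windows. The full element TGACGTCA, which contains the half-site, was found in 1.79% of all windows and in none of these 3. The E-box CACGTG, to which BMAL1 binds with its partner, was found in 7.15% of all windows. These letters are not in the 3 windows matched here, nor are those of the AP-1 site TGACTCA and the NR4A site AAAGGTCA, held by 5.20% and 1.51% of windows.

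Each library held between 8045154 and 11269812 counts, and skeletal muscle markers (Acta1, Ckm, Mylpf and Mb) summed to at least 45130 counts per 1000000 of the scaled library (CPM) in every library. The targeted gene Arntl, which encodes BMAL1, held 77 to 198 counts per library and was not lower in the knockout-labelled groups (at rest 14.5 ± 1.94 CPM, against 12.3 ± 2.39 CPM for vehicle, SD, n = 5 each), so every genotype direction below rests on the labels. Libraries differed in their slow-fibre score, the mean log2 CPM of 8 genes of slow muscle fibres such as Myh7 and Tnnt1. It ranged from 0.0996 to 8.64, and 5 libraries were under 4. These were vehicle at rest replicate 5 and replicates 2 and 4 of both exercised groups. Nothing in the labels says whether samples of a group came from separate animals, so p-values measure the spread between these samples. In bulk tissue, fewer cells of a type and less RNA per cell cannot be told apart.

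Per exon length, the order of the members over all 20 libraries was Adamts1, Adamts2, Adamts5, Adamts9 and Adamts4. Adamts1 stood at 4.12 ± 1.13 CPM per kilobase of exon (SD, n = 20), Adamts2 at 0.887 ± 0.132, Adamts5 at 0.857 ± 0.185, Adamts9 at 0.481 ± 0.253 and Adamts4 at 0.138 ± 0.104. Adamts1 thus stood clear of the rest, and Adamts2 and Adamts5 differed by less than their spread. After exercise in vehicle Adamts9 reached 0.859 ± 0.117 CPM per kilobase (n = 5), within the spread of Adamts2 and Adamts5. Adamts1 supplied 34.4% of all counts of the 19 family genes, Adamts5 14.5%, Adamts2 13.03%, Adamts9 11.5% and Adamts4 1.05%. Of the other 14, Adamts10 was at the level of Adamts2 (0.949 ± 0.231 CPM per kilobase), and 8 held too few counts for the test. Exon lengths were those of all annotated transcripts of a gene together, so a gene with long rarely used exons is placed too low.

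**Figure D1:**
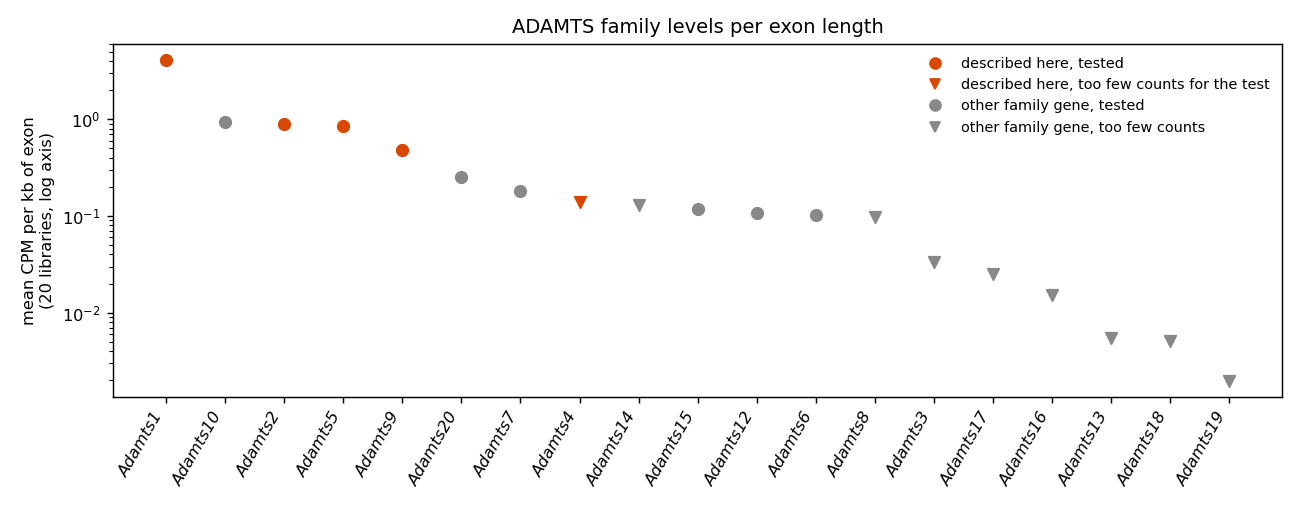
Mean level of each of the 19 ADAMTS genes over 20 libraries, in CPM per kilobase of exon on a log axis; orange marks the 5 genes described here and triangles mark genes with too few counts for the test. Adamts1 is highest at 4.12, and Adamts2, Adamts5 and Adamts9 lie between 0.481 and 0.887.

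Adamts9, a protease of versican and aggrecan that is made in many cell types, had the largest fitted changes with exercise, which chose it, and between genotypes after exercise, but not between genotypes at rest, among the 4 members that passed the filter on low counts. In vehicle muscle at rest it stood at 4.87, 5.55, 3.92, 4.06 and 4.00 CPM in replicates 1 to 5. After exercise, vehicle muscle held 13.8, 10.8, 14.2, 14.6 and 11.2 CPM. Every exercised vehicle library was thus above every resting one. In knockout-labelled muscle Adamts9 stood at 4.85, 3.33, 4.10, 2.91 and 5.64 CPM at rest. After exercise, knockout-labelled muscle held 8.10, 5.18, 8.32, 6.61 and 8.74 CPM. Of these 5 libraries 4 lay above all resting knockout-labelled libraries, while replicate 2 overlapped them. Raw counts behind these values ran from 27 to 62 per library at rest and from 48 to 135 after exercise.

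As a description, the fitted log2 fold change of Adamts9 with exercise was 1.52 (SE 0.177) in vehicle and 0.83 (SE 0.183) in knockout-labelled muscle, or 2.86-fold and 1.78-fold. These are the values that chose the gene. The difference between both log2 fold changes was -0.69 (SE 0.255), and it was not tested because it is made of the same values. Under 8 other settings this difference ran from -0.69 to -0.48. The exercise value in knockout-labelled muscle ran from 0.82 to 1.01 under 9 other settings. Among all 13560 genes tested, edgeR's quasi-likelihood test called 0.804% between exercise and rest in vehicle at an adjusted p under 0.05, and 1.18% were higher without overlap there. In knockout-labelled muscle it called 0%, with 4.71% at an unadjusted p under 0.05 and 0 genes by DESeq2, and 0.487% were higher without overlap. For the difference between both exercise responses edgeR called 0%, with 5.83% at an unadjusted p under 0.05.

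The choice of genes used the exercise response within each genotype and not a difference between genotypes, so the genotypes were compared by test. It did draw on the exercised libraries of both genotypes, so the test of Adamts9 after exercise is not fully independent of the choice. After exercise, Adamts9 was lower in knockout-labelled muscle than in vehicle, 7.39 ± 1.47 against 12.9 ± 1.76 CPM (SD, n = 5 each). The highest knockout-labelled library, at 8.74 CPM, lay below the lowest vehicle library, at 10.8 CPM. The log2 fold change was -0.80 (SE 0.169, edgeR adjusted p 0.00422 over 13560 genes), and the exact two-sided permutation p was 0.00794, the smallest that 5 against 5 samples allow. Of all genes tested, 6.42% were called in this comparison, 3.75% as lower, and 3.59% were lower without overlap. At rest Adamts9 did not pass the test (4.17 ± 1.11 against 4.48 ± 0.712 CPM), with overlapping samples, a log2 fold change of -0.11 (SE 0.190) and an adjusted p of 0.856. A call after exercise and none at rest does not show that the genotype difference changed with exercise, and this comparison shares the exercised vehicle samples with the exercise response of vehicle muscle.

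The Adamts9 call after exercise was made in all 10 fits that left out 1 library (adjusted p from 0.00413 to 0.0150). It was lost when the 5 libraries with a slow-fibre score under 4 were left out together, which kept 3 samples in each exercised group (log2 fold change -0.64, SE 0.199, adjusted p 0.117). The 2 lowest knockout-labelled libraries after exercise, replicates 2 and 4, were among those left out. So were vehicle replicates 2 and 4, the lowest (10.8 CPM) and the highest (14.6 CPM) of their group. The exercised libraries that were kept did not overlap, at 8.10, 8.32 and 8.74 CPM for the knockout label against 13.8, 14.2 and 11.2 CPM. The cause of the lost call was not tested. With the score as a covariate the log2 fold change was -0.79 (SE 0.146, adjusted p 5.80e-04). The slow-fibre score itself averaged 4.93 in vehicle and 4.46 in knockout-labelled muscle after exercise. Exons of Adamts9 overlap those of A730049H05Rik and Gm15737 on the opposite strand over 1381 and 424 bases, and whether reads were counted by strand is not given in the sources used here. After exercise A730049H05Rik averaged 0.853 CPM for vehicle and 0.868 CPM for the knockout label, and Gm15737 averaged 1.87 and 1.22 CPM.

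**Figure D2:**
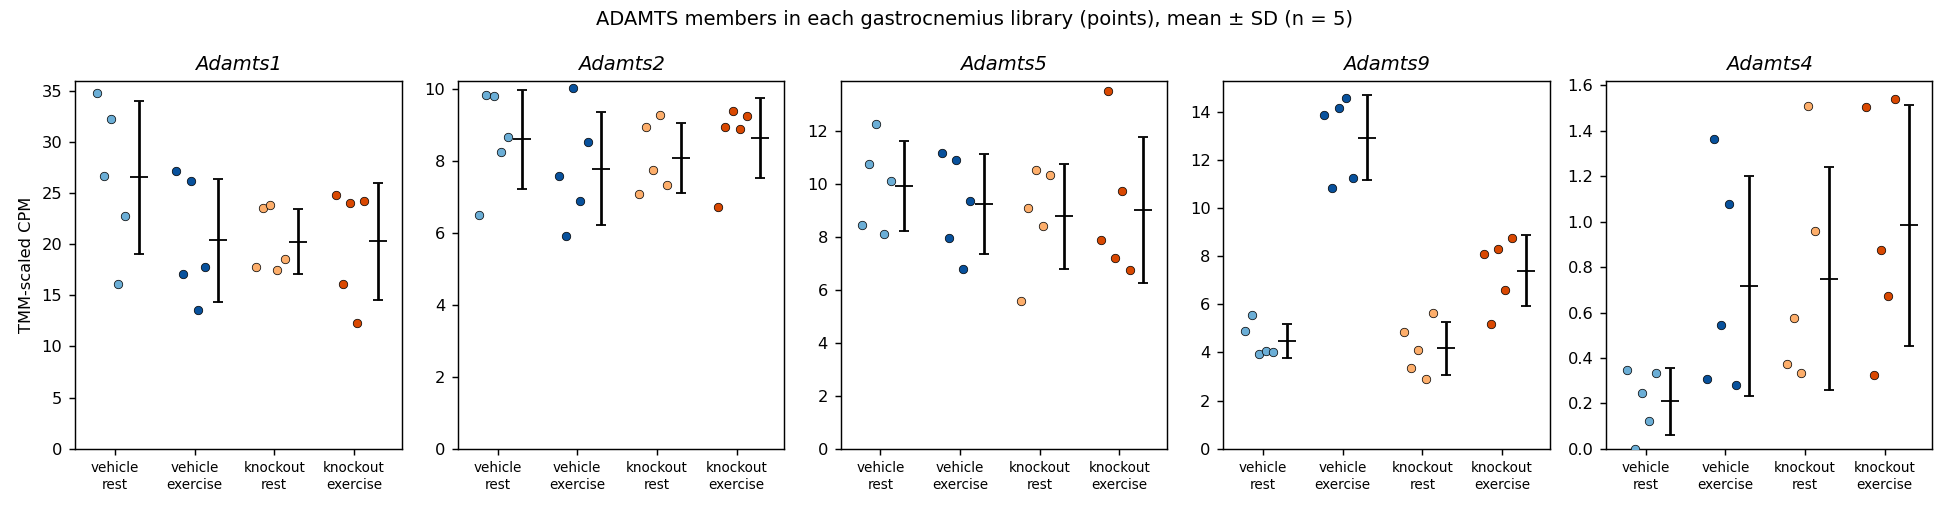
TMM-scaled CPM of the 5 members in each library (points, 5 per group), with the group mean and SD as bars, on axes that start at 0 and differ between panels. Adamts9 is separated between exercised vehicle libraries (10.8 to 14.6 CPM) and all others, whereas the groups of Adamts1, Adamts2 and Adamts5 overlap and Adamts4 stays under 1.55 CPM.

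Adamts1, a protease of versican that is also known as an early responder to inflammation and hormones, was the member with the highest level. Vehicle muscle at rest held 34.8, 26.6, 32.3, 16.1 and 22.8 CPM in replicates 1 to 5, and knockout-labelled muscle at rest held 17.8, 23.6, 23.8, 17.5 and 18.5 CPM. After exercise, vehicle muscle held 27.2, 17.1, 26.2, 13.6 and 17.8 CPM, and knockout-labelled muscle held 24.8, 16.1, 23.96, 12.3 and 24.3 CPM. All 4 groups overlapped. The SD in CPM was largest within vehicle at rest, while in log2 CPM it was 0.439 there and 0.449 in knockout-labelled muscle after exercise. The genotypes did not pass the test at rest (26.5 ± 7.48 CPM for vehicle against 20.2 ± 3.18), where the log2 fold change was -0.39 with an SE of 0.227 and an adjusted p of 0.462. They did not pass after exercise either (20.4 ± 5.99 CPM for vehicle against 20.3 ± 5.72), where the adjusted p was 0.999 and the fitted difference under 0.01. The fitted log2 fold change with exercise, given without a test, was -0.38 (SE 0.226) in vehicle and 0.01 (SE 0.228) in knockout-labelled muscle. With the slow-fibre score as a covariate these became -0.26 (SE 0.158) and 0.26 (SE 0.168).

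Adamts5, the main cartilage aggrecanase of mice, lies next to Adamts1 in the genome. In GENCODE M21 (GRCm38) Adamts1 spans chromosome 16 from 85793827 to 85803113 and Adamts5 from 85856173 to 85901828, both on the minus strand. Adamts5 ranged from 8.12 to 12.3 CPM in vehicle at rest and from 6.79 to 11.2 CPM after exercise. The knockout label gave 5.60 to 10.5 CPM at rest and 6.77 to 13.5 CPM after exercise. The 4 ranges overlapped throughout. The genotype log2 fold change was -0.18 at rest, with an SE of 0.196 and an adjusted p of 0.765, and -0.04 after exercise, with the same SE and an adjusted p of 0.940. Neither passed. With exercise the fitted values were -0.11 (SE 0.194) in vehicle and 0.03 (SE 0.197) in knockout-labelled muscle.

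Adamts2, the procollagen amino-propeptidase, had the narrowest spread of the tested members over all 20 libraries (SD 0.217 in log2 CPM). Vehicle muscle held 8.61 ± 1.38 CPM at rest and 7.79 ± 1.57 CPM after exercise. The knockout label gave 8.08 ± 0.979 CPM at rest and 8.65 ± 1.10 CPM after exercise. Over all 20 libraries it ranged from 5.92 to 10.02 CPM, and all groups overlapped. The genotypes did not pass the test at rest, at a log2 fold change of -0.09 (SE 0.151) and an adjusted p of 0.850, or after exercise, at 0.15 (SE 0.150) and 0.642. With exercise the fitted log2 fold changes were -0.14 (SE 0.151) in vehicle and 0.10 (SE 0.151) in knockout-labelled muscle.

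At rest, 0 of the 4 tested members were thus called between genotypes by edgeR, where 3.86% of all genes were called. None of the 4 had an unadjusted p under 0.05, where 14.6% of all genes did, and DESeq2 called 0 of the 4. After exercise 1 of 4, Adamts9, was called, where 6.42% of all genes were called. The exact two-sided permutation test was run for 5 members in both comparisons, 10 tests in all. Its lowest p-values were 0.00794 for Adamts9 after exercise and 0.0238 for Adamts4 at rest, followed by 0.175 for Adamts1 at rest.

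**Figure D3:**
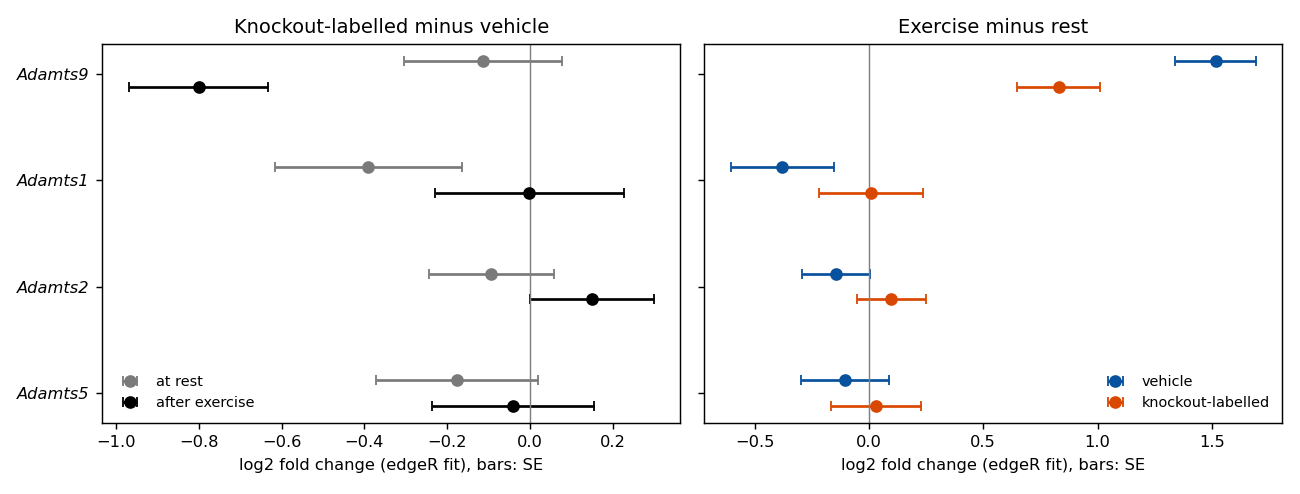
Fitted log2 fold changes of the 4 tested members with SE bars, for knockout-labelled minus vehicle muscle (left, at rest and after exercise) and for exercise minus rest (right, in each genotype). Adamts9 after exercise lies at -0.80 between genotypes, and its exercise values are 1.52 and 0.83, while the other members stay between -0.39 and 0.15.

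Adamts4, an aggrecanase known to be induced by inflammatory signals, held 0 to 18 counts per library and did not pass the filter on low counts. Vehicle libraries at rest held 3, 0, 2, 1 and 3 counts in replicates 1 to 5, while knockout-labelled libraries at rest held 3, 5, 3, 14 and 9 counts. After exercise the vehicle libraries held 3, 12, 5, 10 and 3 counts and the knockout-labelled libraries 13, 3, 8, 5 and 18 counts. Vehicle at rest was thus the lowest group, with all 5 libraries at or under 3 counts, and it touched the range of each other group. At rest, 34 counts in knockout-labelled muscle stood against 9 in vehicle, a depth-scaled ratio of 3.83 with a 95% exact interval of 1.80 to 9.08 that covers counting error only. The exact two-sided permutation p of the log2 CPM was 0.0238, but without the filter on low counts edgeR's adjusted p over all genes was 0.193, so the difference did not pass. After exercise the ratio was 1.47 (interval 0.923 to 2.37, exact permutation p 0.405). Between exercise and rest in vehicle the ratio was 3.47 (1.62 to 8.24), and in knockout-labelled muscle it was 1.33 (0.839 to 2.14), both as descriptions.

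Within groups, no pair of members passed a test for varying together. Deviations of log2 CPM from the group mean were correlated over the 20 samples for all 10 pairs of members, with 100000 permutations of samples within groups. The strongest positive pair was Adamts2 with Adamts5 (r = 0.418, permutation p 0.0808, rho = 0.382, permutation p 0.123, r = 0.364 without the 2 most distant samples), and the strongest negative pair was Adamts4 with Adamts5 (r = -0.430, permutation p 0.0925, rho = -0.478, permutation p 0.0575, r = -0.435 without 2). Adjusted over the 10 pairs, the lowest value was 0.445 for r and 0.483 for rho, so no pair passed. The neighbours Adamts1 and Adamts5 had r = 0.161 (permutation p 0.528, rho = 0.218, permutation p 0.393, r = 0.158 without 2).

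Adamts1 and Adamts9 both varied with the slow-fibre score within groups, a comparison added after the values had been seen. For Adamts1, r was 0.713 (permutation p 0.00395, adjusted over 5 members 0.0123), rho was 0.773 (permutation p 0.00188, adjusted 0.00940) and r was 0.764 without 2 libraries. The 2 left out were those whose score, taken as a deviation from its group mean, lay farthest from the median deviation. For Adamts9, r was 0.606 (permutation p 0.00494, adjusted 0.0123), rho was 0.534 (permutation p 0.0170, adjusted 0.0426) and r was 0.577 without those 2 libraries. For Adamts2, Adamts4 and Adamts5, r was 0.252, -0.221 and -0.119, and none passed (permutation p from 0.358 to 0.657, rho from -0.132 to 0.277). In the libraries with a score under 4, Adamts1 was between 12.3 and 22.8 CPM. In the other libraries it was between 16.1 and 34.8 CPM, so these ranges overlapped.

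**Figure D4:**
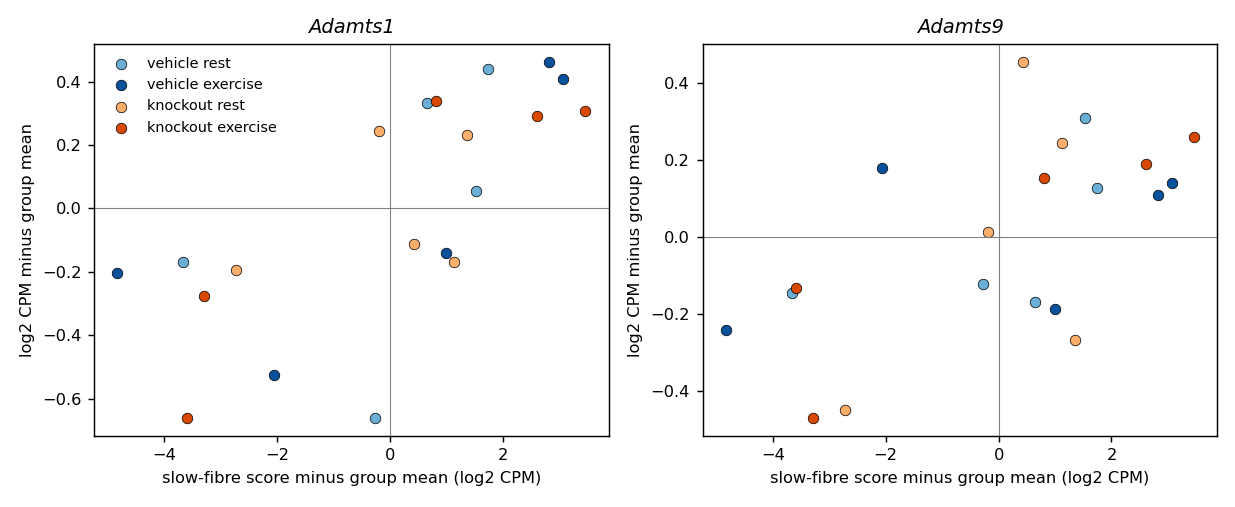
Deviation of log2 CPM from the group mean for Adamts1 (left) and Adamts9 (right) against the deviation of the slow-fibre score, with 1 point per library and colours for the 4 groups. Points rise from lower left to upper right for Adamts1 (r = 0.713) and less tightly for Adamts9 (r = 0.606).

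Genes with the most similar course over the 20 samples were ranked by Pearson's r of log2 CPM among 11722 genes with a mean log2 CPM of at least 1, as a description in which all genes share libraries and group differences. For Adamts9 they were Sik1 (r = 0.906), a salt-inducible kinase, Nfe2l2 (0.899), a factor of the oxidative stress response, and Nr4a2 (0.876), an orphan nuclear receptor. With group means removed they were Ppp1r12c (0.846) and 4930523C07Rik (0.821), followed by a row that carries a date in place of a symbol (0.820). For Adamts1 they were Tspan2 (0.906), Itpr2 (0.842) and Cdv3 (0.841), and with group means removed Slfn5 (0.928), Tspan2 (0.927) and Bche (0.919). Tspan2 was thus near Adamts1 in both rankings. For Adamts2 the nearest genes were Ctss (0.788), which encodes cathepsin S, Tgfbi (0.747) and Dr1 (0.714), and Ctss also led with group means removed (0.817). For Adamts5 they were Atp10a (0.772), Setd1b (0.685) and Thada (0.667), and Atp10a again led with group means removed (0.773).

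The genes that work with these proteases were taken from lists of 65 further genes, of which 40 passed the filter. At rest 1 of the 40 was called between genotypes (2.50%, against 3.86% of all genes), and in vehicle 1 of 40 was called between exercise and rest (2.50%, against 0.804%). Both calls were Sdc4, which encodes syndecan-4, a heparan sulfate proteoglycan of the cell surface known to bind ADAMTS proteases. Sdc4 rose from 24.4 ± 5.44 CPM in vehicle at rest to 50.3 ± 13.7 CPM in vehicle after exercise (edgeR adjusted p 0.0289, log2 fold change 1.04 with an SE of 0.221). With the knockout label it was also higher at rest, at 43.1 ± 8.64 CPM (adjusted p 0.0421, log2 fold change 0.82 with an SE of 0.221), and stood at 53.2 ± 14.9 CPM after exercise. Both calls share the resting vehicle samples. The lists were chosen with earlier results of these data known. The Sdc4 p-values and the counts of 1 in 40 may therefore not be independent of that choice. Leaving out 1 library kept the exercise call in 3 of 10 fits and the genotype call in 2 of 10, up to an adjusted p of 0.0954 for exercise and 0.122 for genotype, both without vehicle at rest replicate 5. In the comparison of genotypes after exercise edgeR called 0 of the 40, against 6.42% of all genes. At an unadjusted p under 0.05 there were 4 of the 40, against 19.4% of all genes, and DESeq2 called 0. For exercise in knockout-labelled muscle edgeR called 0 of 40 and 0% of all genes, with 2 of 40 and 4.71% unadjusted. For the difference between both exercise responses it called 0 of 40 and 0%, with 2 of 40 and 5.83% unadjusted. DESeq2 called 0 of the 40 in both.

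Among the other 6 tested ADAMTS genes, none was called in any comparison. Of all genes, 3.86% were called between genotypes at rest, 6.42% after exercise, 0.804% for exercise in vehicle and 0% in the remaining comparisons. At such shares a small set can hold no call, which also holds for the groups below. The largest fitted values between genotypes were those of Adamts7 after exercise (log2 fold change 0.73, SE 0.390, adjusted p 0.316) and Adamts6 at rest (0.73, SE 0.455, adjusted p 0.502). All 7 genes of the related ADAMTS-like group, which lack the protease domain, were tested and none was called. Adamtsl4 was the most abundant of them at 8.29 ± 1.76 CPM per kilobase (n = 20), above Adamts1. Of 8 proteoglycan substrates and link proteins only Vcan, which encodes versican, held enough counts, and Acan, which encodes aggrecan, had 1 count in all 20 libraries. Vcan had a log2 fold change of 0.57 with exercise in vehicle (SE 0.314, adjusted p 0.643) and of -0.17 between genotypes after exercise (SE 0.306, adjusted p 0.819). Of 6 fibrillar procollagen genes 5 were tested and none was called. With exercise in vehicle 4 of these had a fitted value below 0 and 1 above. Col1a1 had the lowest (-0.61, SE 0.233, adjusted p 0.377) and Col5a2 the highest (0.41, SE 0.171, adjusted p 0.442). The inhibitor gene Timp3 stood at 15.6 ± 2.00 CPM per kilobase, above every ADAMTS gene, and was not called (0.12 between genotypes after exercise, SE 0.102, adjusted p 0.558). Furin, the precursor-trimming protease, had a log2 fold change of 0.25 between genotypes after exercise (SE 0.0904, adjusted p 0.109), and Lrp1, the clearance receptor, 0.14 (SE 0.173, adjusted p 0.726).

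Markers of cell types that muscle can hold were set beside these values. Summed over 8 endothelial genes, vehicle muscle held 151 to 195 CPM at rest and 98.9 to 179 CPM after exercise, and knockout-labelled muscle held 141 to 203 CPM and 112 to 186 CPM. Over 7 fibroblast genes the sums after exercise ran from 199 to 364 CPM in vehicle and from 314 to 427 CPM in knockout-labelled muscle, and over 7 genes of pericytes and smooth muscle from 412 to 568 CPM and from 516.5 to 624 CPM. The ranges overlapped for all 3 lists, and their median sums were higher with the knockout label after exercise, where Adamts9 was lower. Of the 12 marker lists, 4 had a median log2 fold change below 0 in that comparison, as Adamts9 had. These were blood (-0.96), fat cell (-0.51), slow fibre (-0.39) and Schwann cell (-0.27). With exercise in vehicle, where Adamts9 was higher, the medians of these lists were 0.42, 0.10, -0.37 and 0.71. Summed over 4 blood genes, exercised libraries held 54.9 to 357 CPM in vehicle and 47.1 to 138 CPM with the knockout label, and over 4 Schwann cell genes 8.42 to 59.2 CPM and 13.5 to 33.5 CPM. The fat cell sums, over 5 genes, ran from 1.44 to 35.6 CPM and from 1.16 to 15.1 CPM, and the slow fibre sums, over 8 genes, from 48.4 to 2616 CPM and from 62.1 to 2597 CPM. These ranges overlapped too. No gene of the 12 lists was called in any of the 5 comparisons, and no marker was at 0 in a whole group. Of all genes, 3.86% were called between genotypes at rest, 6.42% after exercise and 0.804% for exercise in vehicle. For exercise in knockout-labelled muscle and for the difference between both exercise responses it was 0%, so no list could hold a call there. An absent call does not show equal cell content. Over 6 tendon genes the sums after exercise ran from 55.5 to 117 CPM in vehicle and from 55.1 to 119.5 CPM in knockout-labelled muscle. The part of cell type content in the Adamts9 difference was not tested.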

How the data were processed

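Counts per gene symbol in 20 gastrocnemius libraries were used as deposited by the authors. Values are whole numbers with unequal library totals, so they were treated as not normalized. The submitters' processing notes name STAR 2.7.8a, Partek and DESeq2 and the builds mm10 and GRCm39, with no role or order. The counting program, annotation and strandedness are not given in the sources used here.

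Groups and replicate numbers came from the sample titles. Filtering with filterByExpr of edgeR 4.0.16 (minimum 10 counts) left 13560 genes. Libraries were scaled by TMM, and R 4.3.3 ran a robust quasi-likelihood fit over the 20 samples with a mean for each group. Benjamini-Hochberg adjustment ran over all 13560 genes, with a threshold of 0.05. Log2 CPM used a prior count of 2, and SE came from the F statistics. Exact permutation tests used 252 relabellings. The fit was tested on simulated counts. DESeq2 1.42.0 and other scalings, filters and sample sets were run as alternatives. GENCODE M21 gave exon lengths and overlaps.

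Members, gene lists and markers were chosen with earlier results of these data known. All 5 members were named, with every list gene called in at least 1 comparison and the 3 genes most like each tested member. Other list genes were named for their role or level after their values were seen. A result that bears on Adamts4 is not reported here.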

Additional observations from a re-analysis of the deposited data

Results flagged for a closer look

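The Adamts2 level in knockout-labelled muscle after exercise replicate 1, 6.71 CPM, stood apart from the 8.91 to 9.41 CPM of the other 4 libraries of its group. The gap was 0.837 of the group's log2 range, where 0.710 is Dixon's critical value for 5 samples. Of 24 combinations of gene and group that were checked, this was the only 1, and chance alone gives about 1 in 20.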

How the results depend on the processing

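The Adamts9 genotype call after exercise held under 8 other settings and was lost (members called 0) only without the 5 libraries of low slow-fibre score, a set chosen after seeing the data. In that set genes called numbered 304 after exercise, 61 for exercise in vehicle and 3 for exercise in the knockout label, the log2 fold change after exercise was 0.03976 for Adamts1 and -0.0354 for Adamts2, and the Adamts5 difference between exercise responses was -0.3493. With the slow-fibre score as a covariate the counts were 850 at rest, 1419 after exercise, 248 and 8 for exercise, and Adamts1 after exercise was 0.04026. Fits on the compared groups alone called 567 genes after exercise and 61 for exercise in vehicle. DESeq2 called 190 for exercise in vehicle and 2 for the difference between exercise responses. With library size only, Adamts1 after exercise was 0.03547. Leaving out 1 library gave 52 to 135 genes for exercise in vehicle and 0 to 1 for the difference (1 without knockout at rest replicate 3). It gave -0.1156 to 0.1295 for Adamts1 and -0.2441 to 0.04093 for Adamts5 after exercise. The causes were not tested.

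Whether replicate numbers pair the samples was not settled. Of 20 same-number correlations, from -0.448 to 0.437, 11 were over 0.1 and 6 were best with their own number. Between genotypes after exercise they ran from 0.0185 to 0.437. With the replicate block, genes called were 518 at rest, 824 after exercise and 100 for exercise in vehicle, Adamts9 after exercise was -0.81 (adjusted p 0.00567), and Adamts1 after exercise was 0.003288. Depth limits Adamts4, at 0 to 18 counts per library.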
